A study of Mus musculus with 5 samples.

Results

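B-lineage cells are lymphocytes, and their precursors, that are committed to making immunoglobulin, and here they were sought among dissociated lung cells of mouse embryos. A barcode was a member if it had 500 or more detected genes, no more than 15% of its unique molecular identifiers (UMIs) from mitochondrial genes, met a marker rule and carried 0 UMIs of C1qa, Epcam, Cdh5 and Pdgfra, which mark macrophages, epithelium, endothelium and mesenchyme. The marker rule asked for at least 1 UMI of at least 2 of 5 B-lineage genes, Cd79a, Cd79b, Ighm, Ebf1 and Vpreb3, with Cd79a or Cd79b among them. It took 243 of the 19491 barcodes that passed the filters on genes and mitochondrial UMIs. The members were thus chosen by the counts of these genes, whose levels are given below as a description, with no test. They are part of the fits across all genes but are left out of the counts and medians of gene lists.

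The lungs came from embryos at E18.5, and each library was made from 1 set of whole lungs, digested with collagenase, strained, treated with red cell lysis buffer and loaded on the 10x Genomics 3′ platform. Per the labels, 2 libraries were Zswim8+/- (Het1 and Het2) and 3 were Zswim8-/- (KO1, KO2 and KO3), so no group was wild type; ZSWIM8 is the substrate adaptor of a cullin ubiquitin ligase that acts in microRNA decay directed by target transcripts. The design of the Zswim8 allele, the strain and the litters were not given in the sources used here. Values for the 5 libraries always follow in the order Het1, Het2, KO1, KO2 and KO3.

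The libraries held 56608582 to 93708304 UMIs and 3129 to 4820 kept barcodes. By Xist and Y-linked UMIs, KO1 and KO2 were female and Het1, Het2 and KO3 male, so sex and genotype overlapped in part. Among members, 26 of 26 in KO1 and 39 of 42 in KO2 carried an Xist UMI, against 0, 1 and 0 members in Het1, Het2 and KO3. The Zswim8 level in the members' summed counts was 23.4, 43.3, 24.4, 25.9 and 32.3 CPM (UMIs per 1000000 UMIs of the sum), on 9 to 26 UMIs per library, and the groups overlapped. These 3′ counts do not show whether the transcript was intact, so the genotypes below are those of the labels. Kept barcodes shared between pairs of libraries numbered 0 to 7, and 0 members shared a barcode.

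During B cell development, pro-B cells cut and join the heavy chain gene with the RAG1 and RAG2 recombinase. The heavy chain then reaches the surface with a surrogate light chain, made of IGLL1 (lambda5) and VPREB1 or VPREB2, as the pre-B cell receptor, which drives proliferation. Rearrangement of a kappa or lambda light chain follows, and the immature B cell shows surface IgM held by the signalling partners CD79A and CD79B. Before birth this takes place mainly in the liver, from which B cells enter the blood and tissues, and the transcription factors EBF1 and PAX5 set the programme.

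Promoters are shown for 4 genes on which the description turns. Cd79a and Vpreb3 are genes of the rule, and Igll1 marks the pro-B and pre-B stages. Blnk, the adaptor between the receptor's kinase SYK and downstream enzymes, was among the genes with the largest fall in the members' sums. Each sequence covers 250 bases before to 50 after the start in RefSeq on GRCm38.p6, and is written in the sense of the gene. Capitals mark ATGCAAAT or its complement ATTTGCAT, the octamer bound by OCT2 and its coactivator POU2AF1, and CCCNNGGG, the palindromic core of EBF1 sites. Both strands were searched, and the 2 motifs do not overlap in these windows. The 4 windows lie at chr7:24897247-24897546 on the plus strand for Cd79a, chr10:75948050-75948349 on the plus strand for Vpreb3, chr16:16863936-16864235 on the minus strand for Igll1 and chr19:40994172-40994471 on the minus strand for Blnk.
Cd79a: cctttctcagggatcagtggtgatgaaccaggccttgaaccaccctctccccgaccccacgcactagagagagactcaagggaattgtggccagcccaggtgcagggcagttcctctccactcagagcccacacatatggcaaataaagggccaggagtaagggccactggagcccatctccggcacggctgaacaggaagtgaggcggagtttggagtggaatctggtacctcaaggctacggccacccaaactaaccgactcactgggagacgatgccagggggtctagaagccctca
Vpreb3: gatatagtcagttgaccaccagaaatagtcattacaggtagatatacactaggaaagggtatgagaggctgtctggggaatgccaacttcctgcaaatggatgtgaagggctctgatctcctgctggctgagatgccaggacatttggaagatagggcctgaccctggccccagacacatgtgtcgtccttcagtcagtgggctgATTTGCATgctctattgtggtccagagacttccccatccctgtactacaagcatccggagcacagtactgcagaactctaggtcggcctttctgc
Igll1: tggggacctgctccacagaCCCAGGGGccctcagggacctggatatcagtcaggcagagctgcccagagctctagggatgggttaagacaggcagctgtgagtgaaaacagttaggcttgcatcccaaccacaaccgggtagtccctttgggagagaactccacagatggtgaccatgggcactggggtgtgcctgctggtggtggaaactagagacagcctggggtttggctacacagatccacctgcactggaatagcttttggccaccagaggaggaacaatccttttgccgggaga
Blnk: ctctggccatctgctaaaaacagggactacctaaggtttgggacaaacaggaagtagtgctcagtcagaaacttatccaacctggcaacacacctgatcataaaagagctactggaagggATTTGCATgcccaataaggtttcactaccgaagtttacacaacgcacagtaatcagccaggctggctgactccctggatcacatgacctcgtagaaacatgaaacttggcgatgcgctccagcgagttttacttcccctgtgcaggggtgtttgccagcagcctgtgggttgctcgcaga
The octamer lay 45 bases before the start of Vpreb3 and 130 bases before that of Blnk. It was present in 570 of 32851 promoters of the same length (1.74%). The EBF-type core lay 231 bases before the start of Igll1 and occurred in 4491 of these promoters (13.7%). The Cd79a window, and those of Vpreb1 and Pax5, held no match to these letters. A match is a description of the sequence and not a bound site.

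The 243 members were of 2 kinds, which differed in markers that the rule did not use. In 94 members with at least 3 of the 5 genes, the median barcode carried 5 of 8 further B-lineage genes (among them Pax5, Ms4a1, Pou2af1, Blk, Cd37, Spib and Blnk), and 89 (94.7%) carried at least 2. In 149 members with exactly 2 of the 5 genes, the median barcode carried 0 of these 8, and 4 (2.68%) carried at least 2. The macrophage growth factor receptor gene Csf1r had a UMI in 121 (81.2%) of the 149 and in 5 (5.32%) of the 94. Lysozyme, Lyz2, had a UMI in 134 of the 149 and in 34 of the 94. Ms4a1, Pax5, Vpreb1 and Igll1, which define B cells and their precursors, were at 0 in all 149, which allows a share of up to 2.01% of barcodes with a UMI. By these markers the label holds for most of the 94, but not for most of the 149, which are called members with exactly 2 genes. Among the 94, 5 barcodes carried fewer than 2 of the 8 genes, and 1 of these, in KO3, carried 0 of them beside 113 Lyz2 UMIs. That barcode held 17188 UMIs. The set of 94 was formed after these values were seen.

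The pair Cd79b and Ighm accounted for 125 of the 149. In these 149 barcodes, Cd79b rested on 1 UMI in 107 and Ighm on 1 UMI in 95. Genes of the rule were also found in barcodes outside the members. Other leukocytes were 7827 kept barcodes with a UMI of the pan-leukocyte gene Ptprc and 0 UMIs of Epcam, Cdh5 and Pdgfra that were not members. Unlike in members, C1qa was not excluded. Of these other leukocytes, 23.1% carried Cd79b and 8.33% carried Ighm, against 0.281% for Cd79a and 0.281% for Vpreb3. The rule itself took the members out of these shares, which lowers them. Among 2701 endothelial barcodes, 12% carried Cd79b, 0.666% Ighm and 22.0% Ebf1. Other leukocytes had median depths of 12145 to 13808 UMIs per library. The median was 15997 UMIs in members with exactly 2 genes and 4236 in the 94.

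Just inside and outside the rule the values were as follows. A single one of the 5 genes, Cd79a or Cd79b, was found in 1361 further barcodes, whose median carried 0 of the 8 other B-lineage genes. An excluded marker removed 58 barcodes with at least 3 of the 5 genes, with a median of 107232 UMIs, of which 13 carried at least 2 of the 8. The filters on genes and mitochondrial UMIs removed 45 further barcodes with at least 3 of the 5 genes (21, 15, 2, 4 and 3 by library), and 40 of these carried at least 2 of the 8. All 5 genes were present in 83 of the 94.

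**Figure D1:**
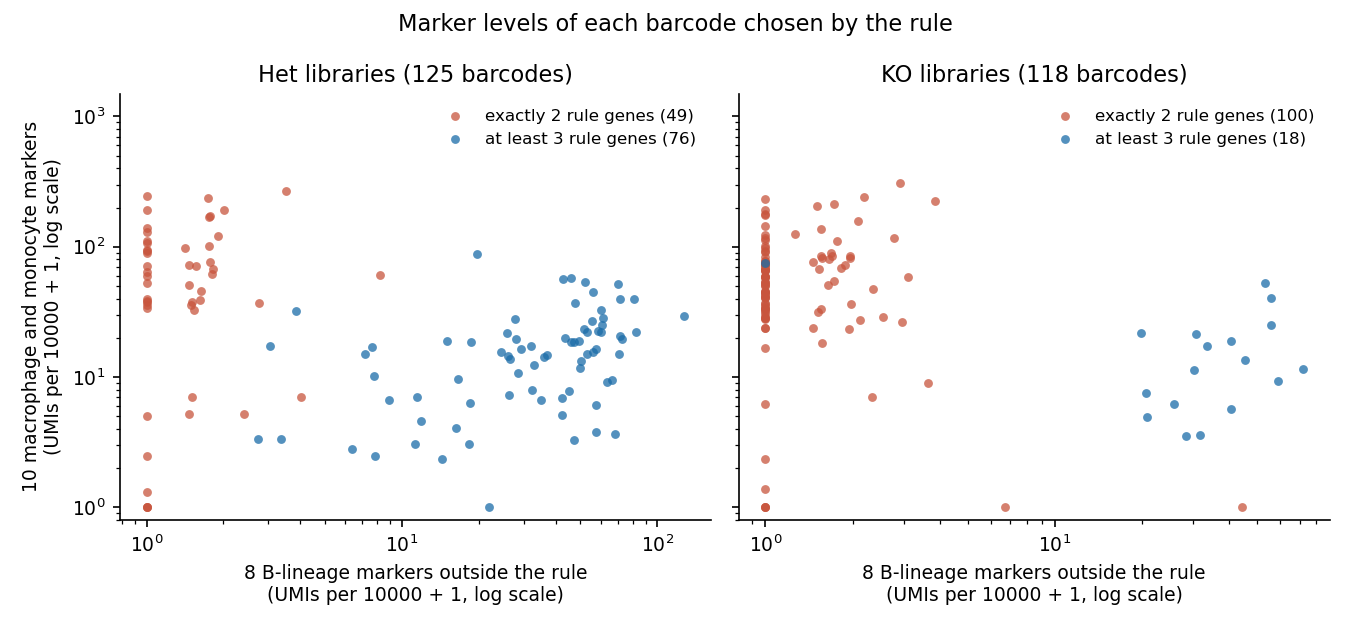
Each point is 1 of the 243 members, in Het libraries on the left and KO libraries on the right. The x axis gives the summed UMIs of 8 B-lineage markers outside the rule and the y axis those of 10 macrophage and monocyte markers, both per 10000 UMIs of the barcode plus 1, on log scales; members with at least 3 rule genes (76 Het and 18 KO) lie mostly to the right and low, and members with exactly 2 (49 Het and 100 KO) mostly at the left and high.

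The number of members did not separate the genotypes, but the number with at least 3 genes did. Members numbered 84, 41, 26, 42 and 50, or 1.74%, 0.975%, 0.831%, 1.26% and 1.25% of kept barcodes. The groups overlapped, with a Het mean of 1.36% ± 0.543 (SD, n = 2) and a KO mean of 1.11% ± 0.245 (SD, n = 3) (exact permutation test, two-sided, p = 0.6). With 2 and 3 libraries there are 10 arrangements, so this exact test cannot give a p below 0.1.

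Members with at least 3 genes numbered 54, 22, 5, 5 and 8. They made up 1.12% (95% exact binomial interval 0.843 to 1.46) of kept barcodes in Het1 and 0.523% (0.328 to 0.791) in Het2. In KO1, KO2 and KO3 they made up 0.160% (0.0519 to 0.373), 0.150% (0.0489 to 0.351) and 0.199% (0.0861 to 0.392). Every Het share lay above every KO share, and the gap between Het1 and Het2 was wider than that between Het2 and KO3. The means were 0.822% ± 0.422 (SD, n = 2) and 0.170% ± 0.0259 (SD, n = 3), a ratio of 4.84 (exact permutation p = 0.1, the smallest possible). These intervals cover counting error only.

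Members with exactly 2 genes numbered 30, 19, 21, 37 and 42, and lay the other way. Their shares of kept barcodes averaged 0.537% ± 0.121 in the Het libraries (SD, n = 2) and 0.944% ± 0.238 in the KO libraries (SD, n = 3), with no overlap (exact permutation p = 0.2). Other leukocytes with a Cd79b UMI made up 19.5%, 19.9%, 27.8%, 26% and 26.1%, and those with an Ighm UMI 6.94%, 6.26%, 9.26%, 10.9% and 9.67%. Both shares were thus higher in each KO library than in each Het library, in cells outside the rule as well. Their part in the number of members with exactly 2 genes was not tested.

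The fraction of members with at least 3 genes was 64.3%, 53.7%, 19.2%, 11.9% and 16.0%. These shallower barcodes held 44.6%, 38.7%, 5.13%, 3.95% and 6.21% of the members' UMIs. Any sum over all members therefore mixed the 2 kinds in different proportions in Het and KO.

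**Figure D2:**
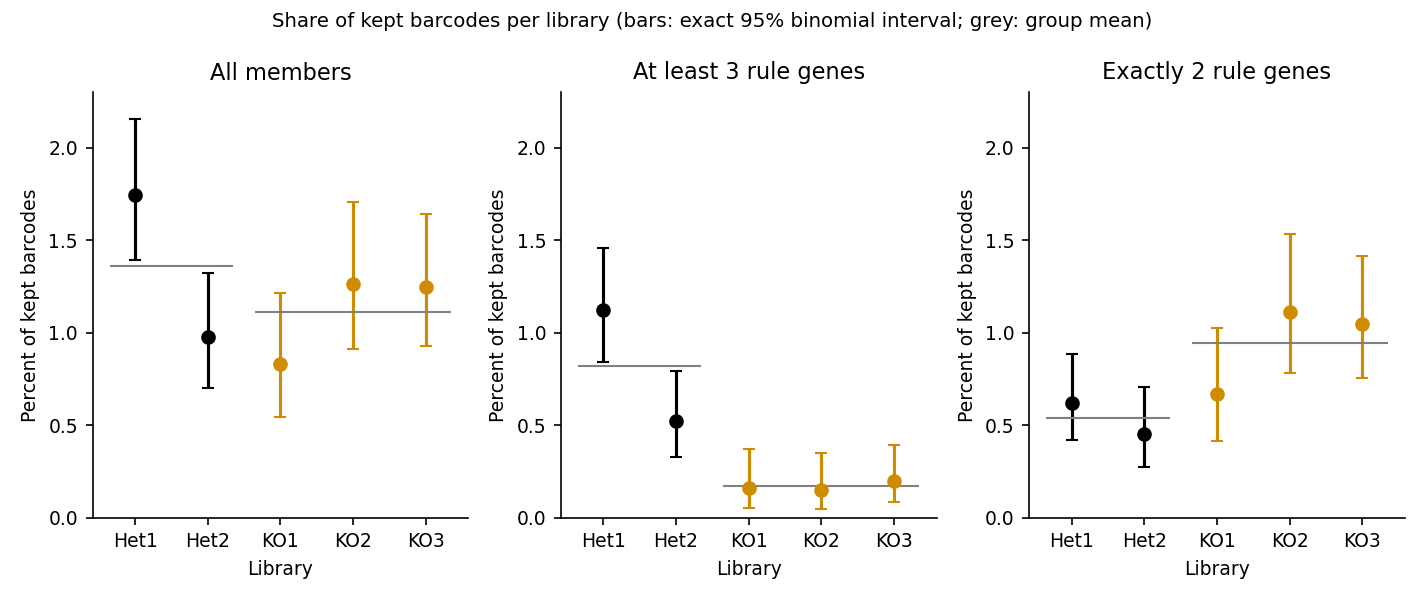
Share of kept barcodes in each library, in percent, for all members, members with at least 3 rule genes and members with exactly 2. Points are libraries, bars are exact 95% binomial intervals and grey lines are group means; all members overlap between genotypes, members with at least 3 genes are higher in both Het libraries (1.12% and 0.523%) than in the KO libraries (0.150% to 0.199%), and members with exactly 2 genes are lower in Het.

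The separation by at least 3 genes held with the other denominator and filters tried. Among leukocyte barcodes (1993, 1987, 896, 1499 and 1658), members with at least 3 genes and a Ptprc UMI made up 1.41% ± 0.637 in the Het libraries (SD, n = 2) and 0.338% ± 0.0953 in the KO libraries (SD, n = 3) (exact permutation p = 0.1). With barcodes that carried an excluded marker kept, the means were 1.09% and 0.488% of kept barcodes. Over all barcodes other than red-cell barcodes they were 0.843% and 0.159%. With a stricter filter (1000 or more genes, 10% mitochondrial UMIs or fewer) they were 0.786% and 0.143%. The exact permutation p was 0.1, its smallest value, in each of these, and no library of one group reached the other.

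T, NK and innate lymphoid cells, the other lymphocytes of these lungs, gave a comparison. Barcodes with at least 3 of their markers numbered 25, 33, 6, 19 and 18, or 1.46% ± 0.287 of Het leukocyte barcodes (SD, n = 2) and 1.01% ± 0.306 of KO ones (SD, n = 3), and the groups overlapped (exact permutation p = 0.3). Members with at least 3 genes per T, NK or innate lymphoid cell stood at 2.16, 0.667, 0.833, 0.263 and 0.444. The log2 of this ratio averaged 0.26 in Het and -1.12 in KO, and the groups overlapped (exact permutation p = 0.3). A fall in the share that was larger for B-lineage cells than for the other lymphocytes was thus not separated from the spread between libraries.

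Stage genes divided the 94 members with at least 3 genes into few early and many light-chain-positive cells. Only surrogate light chain or recombination genes (Igll1, Vpreb1, Vpreb2, Rag1, Rag2 or Dntt) were seen in 10 barcodes. Only light chain constant genes (Igkc, Iglc1, Iglc2 or Iglc3) were seen in 72, both kinds in 8 and neither in 4. By library, light chain genes alone were found in 43 of 54, 16 of 22, 3 of 5, 4 of 5 and 6 of 8. Early genes alone were found in 3, 5, 1, 1 and 0, and both kinds in 6, 0, 1, 0 and 1. Light-chain-positive cells were the most frequent class in each library of both genotypes.

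The 72 cells with light chain genes alone also carried genes of maturing B cells that did not define the class. Ms4a1, which encodes the surface protein CD20, had a UMI in 69 of 72 (1870 CPM over their summed counts). Cd74, the MHC class II invariant chain, had a UMI in 72 of 72 (5947 CPM), Cd37, a tetraspanin of mature lymphocytes, in 70, and H2-Aa, an MHC class II chain, in 39. Ighd, the constant region of IgD that appears as B cells mature, had a UMI in 24, and the receptor scaffold gene Bank1 in 37. Of the 72, 3 carried a UMI of the proliferation genes Mki67 or Top2a.

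The 10 cells with early genes alone differed from the 72 at these genes, at Cd37 and Ighd in summed level rather than in the share of cells. Ms4a1 had a UMI in 1 of 10, Cd74 in 1, H2-Aa in 0 and Bank1 in 2. Cd37 had a UMI in 9 of 10 and Ighd in 4, shares near those of the 72. Their summed levels were lower, at 245 CPM against 1025 for Cd37 and 40.8 against 129 for Ighd (5 UMIs in the 10 cells). These cells were not thinned to equal depth, and the medians were 4916 UMIs in the 10 and 3944 in the 72. The interleukin-7 receptor gene Il7r, which signals survival and growth in B precursors, had a UMI in 7 of 10, against 5 of the 72. The progenitor transcription factor genes Lef1 and Myb had UMIs in 9 and 8 of 10, against 7 and 14 of the 72. Of the genes that define the class, Rag1 was present in 7, Vpreb1 in 10 (1297 CPM) and Igll1 in 10 (759 CPM). Ighm was present in 8, and 6 of 10 carried Mki67 or Top2a. The 8 cells with both kinds carried Il7r in 7, Rag1 in 6, Igkc in 7 and Ms4a1 in 2, and 5 of the 8 carried a proliferation gene.

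Several genes were at 0 in all 94. Dntt, the template-independent polymerase that adds bases at heavy chain joints mainly after birth, was at 0, which allows up to 3.19% of cells with a UMI. The constant regions of the switched classes (the Ighg genes, Igha and Ighe) were also at 0. Kappa transcripts exceeded lambda: Igkc had UMIs in 79 cells and the Iglc genes in 63, on 3180 and 634 UMIs. In 62 cells both were seen, so an Iglc UMI does not by itself mark a lambda cell. In 72 cells kappa UMIs were the more numerous, and in 7 cells lambda UMIs. The near-identical Iglc1, Iglc2 and Iglc3 share reads, so the split among them is uncertain.

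**Figure D3:**
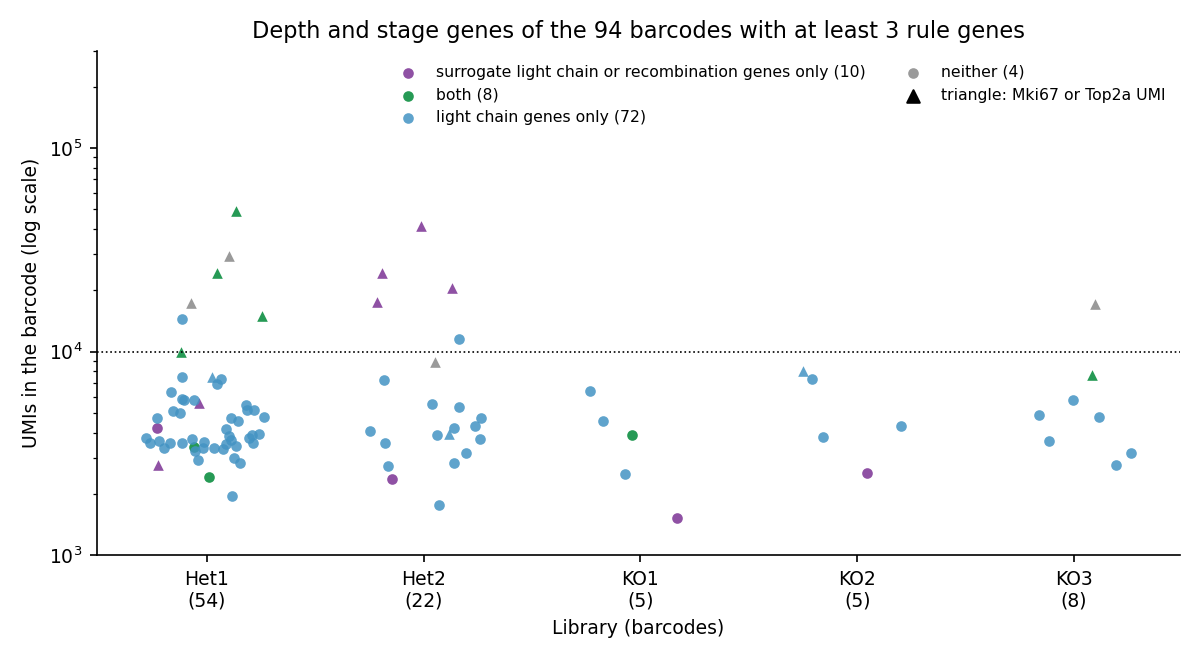
UMIs per barcode (log scale) for the 94 members with at least 3 rule genes, by library. Colour gives the stage genes seen, triangles mark barcodes with an Mki67 or Top2a UMI, and the dotted line stands at 10000 UMIs; 12 of the 13 barcodes above the line are in the Het libraries.

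Stage shares at equal depth were compared after each barcode was thinned to 2000 UMIs, with shallower barcodes left out. Among all members, light chain genes were found in 47 of 83, 15 of 40, 4 of 24, 4 of 41 and 6 of 50. The Het mean was 47.1% ± 13.5 (SD, n = 2) and the KO mean 12.8% ± 3.53 (SD, n = 3), with no overlap (exact permutation p = 0.1). Unthinned, the means were 52.3% and 13.0%. Early genes were found in 7 of 83, 5 of 40, 1 of 24, 1 of 41 and 1 of 50, with means of 10.5% and 2.87% (exact permutation p = 0.1). This separation depended on the depth: thinned to 1000 UMIs the means were 7.23% and 4.13% (exact permutation p = 0.4) and unthinned 11.5% and 5.31% (exact permutation p = 0.3), and both times the groups overlapped. In endothelial barcodes thinned alike, early genes were found in 0% to 0.810% per library and light chain genes in 0 of 741, 530, 423, 406 and 460, with upper exact 95% limits of 0.497% to 0.904%.

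Within the members with at least 3 genes, the groups overlapped in these shares at 2000 UMIs. Light chain genes were found in 46 of 53, 15 of 21, 4 of 4, 4 of 5 and 6 of 8, with means of 79.1% ± 10.9 (SD, n = 2) and 85% ± 13.2 (SD, n = 3), and an exact permutation p of 0.7. Early genes were found in 7 of 53, 4 of 21, 1 of 4, 1 of 5 and 1 of 8, with means of 16.1% and 19.2% (exact permutation p = 0.5). Thinned to 1000 UMIs the early shares were 9.18% and 24.2% with no overlap, higher in KO (exact permutation p = 0.2), on 1 or 2 cells with early genes per KO library. Mki67 or Top2a was found in 8 of 53, 4 of 21, 0 of 4, 0 of 5 and 2 of 8, with means of 17.1% and 8.33% (exact permutation p = 0.4). With 4 to 8 KO cells per library, a share of 0 allows much: 3 counts over all 18 KO cells already correspond to 16.7%.

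Counts were then summed over all members of each library and compared with edgeR's quasi-likelihood test. Of 7089 genes tested, 120 (1.69%) passed an adjusted p of 0.05, with 85 (1.20%) lower and 35 (0.494%) higher in KO. Among B-lineage transcription factors, 6 of 15 tested fell (Spib, Pax5, Ikzf3, Pou2af1, Bach2 and Irf8), and the median log2 fold change of the 15 was -1.06, against 0.00 over all genes tested. Among maturing B cell surface genes, 7 of 13 tested, from a list of 15, fell (among them Ms4a1, Cd55, Cd72, Cd22, Cd37 and Fcrla), with a median of -1.98. Among early progenitor receptors and regulators, 6 of 10 tested, from a list of 14, fell (Il7r, Myb, Lef1, Cd24a, Hmgb2 and Myl4), with a median of -1.77. No gene of these 3 lists rose. Genes that passed the low-count filter only through the Het libraries, among them Pax5, could enter this fit only as genes lower in KO. For such genes the falls counted in this fit are a description. With sex as a covariate 13 genes passed, among them Ms4a1, Ly6d, Cd37, Cd24a and Cd74 but not Igkc, Pax5 or Blnk, and without Het1 32 passed.

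Of 11 receptor signalling genes, Bank1 and Blnk fell (median -0.09). Of 3 light chain genes, Igkc and Iglc3 fell (median -2.74), and of 3 surrogate light chain and recombination genes, Igll1 fell. Of 7 MHC class II genes, Cd74 fell, and of 11 homing and survival receptors, Ccr7, which guides lymphocytes to lymphoid tissue, and Tnfrsf13c, the BAFF receptor. Of 9 macrophage and monocyte markers 1 fell (Plac8), 0 rose and the median was 0.56. The summed level of all 10 of these markers was 4406, 5002, 6779, 7039 and 5900 CPM, lower in both Het libraries than in each KO library, on the same sums. None of 7 genes of the ZSWIM8 ligase and none of 8 trigger or microRNA host transcripts passed, with medians of 0.01 and 0.30.

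Igkc, the kappa constant region at chromosome 6 (GRCm38, 70726435 to 70726966), stood at 2387, 1452, 323, 180 and 391 CPM in the members' sums. Both Het libraries were far above the KO libraries, and the log2 fold change was -2.74 (adjusted p = 0.00189, edgeR). In the sums of the members with at least 3 genes alone, Igkc stood at 5319, 3745, 6289, 4547 and 6289 CPM. There the groups overlapped, and the log2 fold change was 0.27 (95% interval -0.22 to 0.76; adjusted p = 0.678, edgeR). Outside the members, Igkc UMIs in other leukocytes numbered 62, 70, 0, 5 and 2, in 18, 12, 0, 5 and 2 barcodes (log2 fold change -4.35, adjusted p = 0.00427, edgeR). With these KO counts, Igkc passed the low-count filter there only through the Het libraries. It could therefore enter that fit only as a gene lower in KO, and its direction there is a description.

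Ms4a1 gave the same picture. Its level in all members was 449, 299, 81.3, 77.7 and 49.8 CPM, with no overlap (log2 fold change -2.50, adjusted p = 0.00189, edgeR). In members with at least 3 genes it was 1005, 774, 1585, 1965 and 801 CPM, with overlap, and the log2 fold change was 0.58 (95% interval -0.26 to 1.43).

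Ly6d, a surface protein of early lymphoid commitment, stood at 680, 468, 84.1, 88.4 and 90.8 CPM in all members, with no overlap (log2 fold change -2.75, adjusted p = 0.00034, edgeR). In members with at least 3 genes it stood at 1499, 1168, 1638, 2235 and 1462 CPM, and the groups overlapped (log2 fold change 0.33, 95% interval -0.19 to 0.86).

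Pax5, the factor that holds cells to the B fate, stood at 57.9, 57.8, 8.13, 7.62 and 7.46 CPM in all members (log2 fold change -2.94, adjusted p = 0.00193, edgeR). Pax5 passed the low-count filter there only through the Het libraries, so its direction is a description. It had too few UMIs for a test in members with at least 3 genes, where it stood at 130, 149, 159, 193 and 120 CPM, on 3 to 47 UMIs per library. Blnk, whose promoter is printed above, fell in all members (log2 fold change -3.35, adjusted p = 0.00255, edgeR). Its levels in members with at least 3 genes were 124, 149, 159, 116 and 80.1 CPM, with overlap.

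The other genes with the largest falls in all members behaved in 2 ways. Myb (-3.07), Fcrla (-3.04), Spib (-2.97) and Iglc3 (-2.83) had log2 fold changes of -0.29, -0.05, -0.02 and 0.23 in members with at least 3 genes, none of them called. Scd1, a fatty acid desaturase gene, went from -3.45 to -0.52. Bfsp2, a gene of lens filaments, rested on 59, 33, 1, 5 and 3 UMIs (log2 fold change -3.85, adjusted p = 0.00164, edgeR), of which 49 of 59 and 30 of 33 came from barcodes over 10000 UMIs. Marco, a scavenger receptor gene of macrophages, had 22, 35, 0, 0 and 0 UMIs. Of these, 18 lay in 1 Het1 barcode and 35 in 1 Het2 barcode. At the floor of 3 counts over the KO sums it was at least 26.8-fold lower in KO. This value covers counting error of independent UMIs only, so with most UMIs in these barcodes it is no bound on a genotype difference. Bfsp2 and Marco passed the low-count filter only through the Het libraries, so their direction is a description.

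Across the 45 of the 120 genes that could be tested in both, 43 were lower in all members, and 16 of these 43 had a log2 fold change below 0 in members with at least 3 genes. Of the 43, 6 were called there. Among 22 genes of 6 B-lineage lists tested in both, 21 lay below 0 in all members and 7 in members with at least 3 genes. These 7 include each of the 4 early progenitor genes tested there, with a median of -0.33 and Hmgb2 called. For Igkc, Ms4a1 and Ly6d, the lower 95% limits with at least 3 genes were -0.22, -0.26 and -0.19, each above the fold change found in all members. Among the rule's own genes, as a description, Cd79a stood at 759, 679, 179, 128 and 112 CPM in all members and at 1689, 1750, 3382, 3160 and 1722 CPM in members with at least 3 genes. Ighm stood at 1295, 959, 195, 189 and 193 CPM in all members and at 2766, 2331, 2801, 3121 and 2243 CPM with at least 3 genes.

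**Figure D4:**
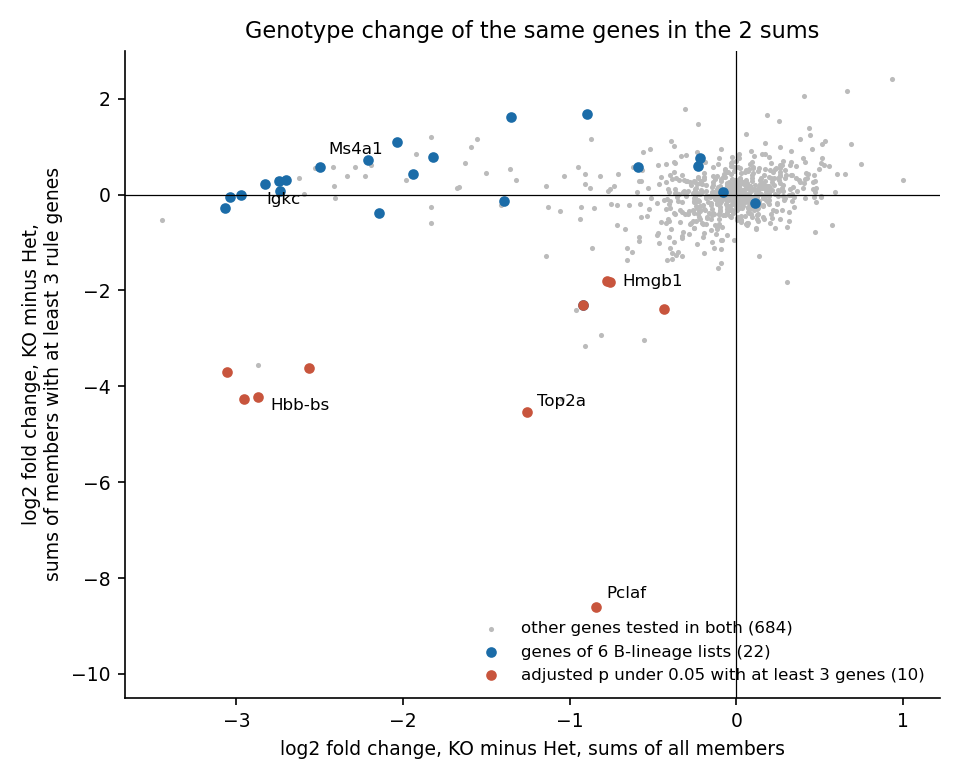
Log2 fold change (KO minus Het) of 715 genes tested in both sums, over all members on the x axis and over members with at least 3 rule genes on the y axis. Of 22 genes of 6 B-lineage lists (blue; Hmgb2 is drawn in red), 21 lie left of 0 and 7 below 0; the 10 genes called in members with at least 3 genes (red) lie below 0, and the position of Pclaf, at 0 UMIs in KO, depends on the prior count.

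In the sums of members with at least 3 genes, 10 of 716 genes tested (1.40%) passed, and each of the 10 was lower in KO. They were of 2 groups, proliferation and chromatin genes and haemoglobins. The first group held Top2a, the topoisomerase of dividing cells, Hmgb1, Hmgb2 and Hmgn2, which bind DNA or nucleosomes, Tubb5, a tubulin, and Pclaf, a partner of the replication clamp. Of 24 cell cycle genes, 7 passed the low-count filter, and of these Top2a, Hmgb2 and Tubb5 fell. Top2a and Pclaf passed this filter only through the Het libraries, where they were high. They could therefore enter the fit only as genes lower in KO, and their direction is a description.

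Hmgb1 stood at 745, 445, 12, 15 and 36 UMIs, or 2056, 2374, 634, 578 and 721 CPM. Both Het libraries lay above the KO libraries (log2 fold change -1.82, adjusted p = 0.0035, edgeR). Of its Het UMIs, 612 of 745 and 391 of 445 came from the 7 and 5 barcodes over 10000 UMIs. Top2a had 160, 102, 0, 1 and 1 UMIs (log2 fold change -4.54, adjusted p = 0.00469, edgeR), of which 143 and 98 came from those barcodes. Pclaf had 141, 66, 0, 0 and 0 UMIs and was at least 11.9-fold lower in KO at the floor of 3 counts over the KO sums. This value covers counting error of independent UMIs only. With 18 KO cells it is no bound on a genotype difference.

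Barcodes over 10000 UMIs numbered 7, 5, 0, 0 and 1 and held 44.0%, 61.4%, 0%, 0% and 34.4% of the UMIs of members with at least 3 genes. The 1 in KO3 is the barcode described above with 113 Lyz2 UMIs, and it is 1 of the 2 KO3 barcodes with a proliferation gene. Of these 13, 11 carried Mki67 or Top2a and 8 also carried an early gene. These 8, 4 in each Het library, were most of the 11 barcodes with both an early and a proliferation gene. When all 13 barcodes over 10000 UMIs were left out, 6 of 396 genes tested (1.52%) passed, and Hmgb1 and Hmgb2 had log2 fold changes of -0.21 (adjusted p = 0.924, edgeR) and -0.80 (adjusted p = 0.696). In that fit Vpreb1 and Igll1 were higher in KO, with log2 fold changes of 2.94 (adjusted p = 7.8e-05, edgeR) and 2.66 (adjusted p = 0.0234). The cut had taken out 8 barcodes with an early gene, 4 in each Het library and 0 in KO. These calls therefore describe the cells left after the cut and do not test a genotype change. With the large barcodes kept, Vpreb1 and Igll1 had 1.63 (adjusted p = 0.324) and 0.73 (adjusted p = 0.678) on 28, 30 and 35 Vpreb1 UMIs in KO1, KO2 and KO3. The KO values rest on 1 or 2 cells with early genes per library.

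Haemoglobin transcripts were also lower in KO. Hbb-bs, a beta chain, had 7702, 4568, 16, 46 and 59 UMIs in members with at least 3 genes, or 21259, 24371, 846, 1773 and 1182 CPM (log2 fold change -4.23, adjusted p = 0.000119, edgeR). Most came from few barcodes: 2 of 22 held 93.4% of the Het2 UMIs, and 9 of 54 in Het1 had over 100 UMIs, against 0 in each KO library. The median barcode had 13, 9, 3, 6 and 6 UMIs. Hba-a1, Hba-a2 and Hbb-bt were called too, with log2 fold changes of -4.26, -3.63 and -3.70. Without the barcodes over 10000 UMIs these 4 genes were still called and made up the 6 calls with Vpreb1 and Igll1. Hbb-bs then had a log2 fold change of -5.25, Hba-a1 -5.28, Hba-a2 -4.70 and Hbb-bt -4.74 (edgeR). The near-identical pairs Hba-a1 and Hba-a2, and Hbb-bs and Hbb-bt, share reads. Erythroid markers were also found in other leukocytes of all libraries. They summed there to 20306, 12773, 5478, 11491 and 10426 CPM, higher in both Het libraries than in each KO library. The log2 fold change of Hbb-bs there was -0.95, which was not called (adjusted p = 0.11, edgeR). Whether the haemoglobin UMIs belonged to the B-lineage cells was not tested.

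Markers of other cell types were not absent in members with at least 3 genes, and some lists stood above their level in other leukocytes. Macrophage and monocyte markers summed to 1222 to 3365 CPM, against 7253 to 8246 CPM in other leukocytes, where C1qa was not excluded. In KO3, 113 of 115 Lyz2 UMIs lay in 1 barcode. Epithelial markers summed to 11262 CPM in Het2 against 581 to 1585 CPM in the other libraries, and 98.3% of the Het2 UMIs of the surfactant gene Sftpc lay in 2 of 22 barcodes. In each library this sum was above that in other leukocytes (365 to 666 CPM). Plasmacytoid dendritic cell markers, 8 genes with Ly6d among them, summed to 1371 to 2351 CPM, against 233 to 313 CPM in other leukocytes. Dendritic cell markers summed to 139 to 655 CPM, against 25.5 to 31.8 CPM. Of 12 T, NK and innate lymphoid markers, Cd3e, Trac, Klrb1c and Ncr1 were at 0 in all libraries. In Het1 the other 8 were detected, and the list summed to 290 CPM, against 58.5 CPM in other leukocytes of Het1. In each of the other libraries this list summed to less than in other leukocytes of the same library. The part of barcodes with markers of other cell types in the results was not tested beyond the fits without large barcodes.

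The sums of members with exactly 2 genes gave no call. By edgeR 0 of 5887 genes (0.00%) passed, 340 had an unadjusted p under 0.05, and DESeq2 called 1, Col3a1. Csf1r stood at 167, 151, 163, 179 and 174 CPM and Lyz2 at 5182, 5475, 5762, 5775 and 4569 CPM in these sums, and the groups overlapped for both. Macrophage and monocyte markers summed to 6726, 7385, 7034, 7268 and 6067 CPM.

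The genes that rose in the sums of all members were sparse in the 94 cells. Ifitm2, an interferon-induced membrane protein gene, stood at 133, 142, 420, 349 and 315 CPM in all members, with no overlap (log2 fold change 1.36, adjusted p = 0.0134, edgeR). It had 26, 5, 1, 2 and 4 UMIs in members with at least 3 genes. In members with exactly 2 genes its log2 fold change was 0.93 (adjusted p = 0.652).

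Vcan, Il6, Slc16a3, Flrt3, Enah, Plxdc2, Adam15, Olfm1 and Cish rose by 1.34 to 1.98 on the log2 scale in all members, and none of them was called in members with exactly 2 genes or could be tested in the 94. Il6, a cytokine gene, had log2 fold changes of 1.69 in all members (adjusted p = 0.0262, edgeR), 1.04 with exactly 2 genes (adjusted p = 0.731) and -0.49 in other leukocytes (adjusted p = 0.0476). Flrt3, an adhesion receptor gene, had 0 UMIs in each library of members with at least 3 genes.

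Col3a1, a fibrillar collagen gene of fibroblasts, had the largest rise in all members, 3.67 (adjusted p = 0.00912, edgeR). It had 13, 6, 39, 84 and 275 UMIs, and the highest barcode held 3, 2, 28, 77 and 189 of these. In KO1, KO2 and KO3, barcodes chosen through Ebf1 with 1 other gene (4, 1 and 4 barcodes) held 37 of 39, 77 of 82 and 258 of 273 of the Col3a1 UMIs of members with exactly 2 genes. Ebf1 is also expressed in mesenchymal cells.

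The genotype change in members was compared with that in other leukocytes in a fit with the library as a block. Of 12747 genes, 337 (2.64%) differed, 213 with the higher and 124 with the lower change in members. With members of at least 3 genes in place of all members, 38 differed. In the first of these fits, the mix of the 2 kinds of member differed between the genotypes.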

How the data were processed

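Single-cell RNA libraries of 5 embryonic lungs were used. The deposited tables hold UMI counts as whole numbers for each gene in each barcode; the authors made them with Cell Ranger 4.0.0 on mm10, per the submitters' processing notes. Their barcode filter was not given in the sources used here. The members and gene lists were chosen with earlier results of these data known.

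The barcode filter is given with the rule below, and doublets stayed in. Replicates are separate embryos per the labels. UMIs were summed per library and compared with edgeR 4.0.16 in R 4.3.3, with a quasi-likelihood fit, TMM factors, filterByExpr, and two-sided p-values adjusted by Benjamini-Hochberg over all genes tested (threshold 0.05). CPM is per 1000000 UMIs of the sum. Shares were compared by exact permutation over the 5 libraries (scipy 1.17.1), and stage shares used barcodes thinned to 2000 UMIs. The fits were tested on simulated data. Named genes were the 12 called genes per direction with the largest change, no overlap between groups and 50 CPM or more in the mean of the higher group, leaving out haemoglobin, sex-linked and mitochondrial genes. 2 of these 24 genes are not reported here. In the comparison with other leukocytes they were the 3 per direction. Genes of the lists are given by role. Alternatives were DESeq2 1.42.0, other scaling, count filters and marker rules, a sex covariate, blocking by replicate number, and leaving out 1 library at a time. The fits of members with at least 3 genes, the requirement of Cd79a or of no Csf1r UMI, and the DESeq2 fit with exactly 2 genes were chosen after seeing the data, as were the genes named from them.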

Additional observations from a re-analysis of the deposited data

Results flagged for a closer look

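The comparison of the genotype change in members with that in other leukocytes, by edgeR with the library as a block, gave the following differences (members minus other leukocytes, log2). Calca differed by -13.23 (adjusted p = 0.00208), on 183 UMIs that all lay in 1 Het1 barcode with at least 3 rule genes. Stfa2 differed by -10.81 (adjusted p = 0.00257), on 38 UMIs in Het1, 33 of them in 1 barcode, and 1 UMI in Het2. Marco differed by -9.98 (adjusted p = 0.0013), with 35 UMIs in 1 Het2 barcode and 22 in Het1, 18 of them in 1 barcode. The members' KO counts of Calca, Stfa2 and Marco were 0, so these fitted values depend on the prior count and are no bounds.

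Wfdc17, a small secreted protein gene of myeloid cells, differed by 2.76 (adjusted p = 1.34e-06). Its log2 fold change was 0.85 in members (adjusted p = 0.422) and -1.90 in other leukocytes (adjusted p = 0.00115), and 2 of the members' UMIs came from members with at least 3 genes. Cxcl1, a neutrophil chemokine gene, differed by 2.66 (adjusted p = 0.00588), and its 29 UMIs in KO3 lay in 1 barcode. Fabp4, a fatty acid binding protein gene, differed by 2.59 (adjusted p = 0.0246), with a log2 fold change of -0.26 in members (adjusted p = 0.958) and of -2.96 in other leukocytes (adjusted p = 1.61e-06). The adjusted p-values are from edgeR, over 12747 genes.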

How the results depend on the processing

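The difference in the share of members (KO minus Het, percentage points of kept barcodes) was -0.246 and ranged from -0.629 to 0.138 with 1 library left out, the last without Het1. Of leukocyte barcodes it was 0.0639, and became -1.07 with at least 3 genes, -1.01 with Cd79a required and -1.03 with no Csf1r UMI. With 1 library left out it ranged from -0.586 to 0.713, at -0.586 without Het2 and -0.00549 without KO3. For members with at least 3 genes it ranged from -0.95 to -0.353 around -0.652, the last without Het1. The shares with early and with light chain genes were -7.6 and -34.3 points, and reversed to 3.04 and 5.89 with at least 3 genes. That with cell cycle genes was -1.74, and reversed to 7.92 without thinning, 0.976 with Ebf1 not counted, 1.08 without Het2 and 3.07 without KO1 (range -5.76 to 3.07). The 120 calls in all members became 409 with no low-count filter, 264 with Ebf1 not counted, 10 with at least 3 genes, 4 with Cd79a required (the 4 haemoglobin genes), 0 with no Csf1r UMI (165 unadjusted), 13 with a sex covariate and 32 (without Het1), 58 (without Het2), 49 (without KO2) to 103 with 1 library left out. The replicate block gave 268; same-numbered deviations correlated at 0.23 and 0.30 over 2 pairs, which does not pair the libraries. Of the 22 genes reported from that fit, 19 were called by DESeq2, 3 with a sex covariate and 9 without Het1. Iglc3, Ly6d and Igkc reversed to 0.23, 0.33 and 0.27 with at least 3 genes, none called. The 10 calls with at least 3 genes became 6 without barcodes over 10000 UMIs, 13 by DESeq2, and 9 to 15 with 1 library left out; the 0 calls with exactly 2 became 1 by DESeq2. The 337 differences from other leukocytes became 542 with a minimum count of 3, 38 with at least 3 genes, and 169 (without KO2) to 534 (without KO1), with 200 without Het1. Except where stated, the cause was not tested. Depth limits the KO libraries most, with 18922 to 49929 UMIs in 5 to 8 cells with at least 3 genes.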
